A study of Mus musculus with 20 samples.

Results

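Glycosylphosphatidylinositol (GPI) is a glycolipid that anchors many proteins to the outer face of the cell membrane. It is built step by step on phosphatidylinositol in the endoplasmic reticulum: a sugar is added and trimmed, mannoses and ethanolamine phosphates follow, a transamidase moves the finished anchor onto the protein, and the anchor is remodelled on the way to the surface. Many adhesion molecules, receptors and enzymes of neural, endocrine and fat tissue are held by such anchors. The 30 genes described here encode the enzymes of this route, chosen by name: the PIG genes, the transamidase, the synthase of the mannose donor, the remodelling genes and the phospholipase Gpld1, out of 24062 genes counted. All 30 passed the filter on low counts in every comparison.

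Male C57BL/6N mice fed chow gave 20 poly(A) RNA libraries: 10 of pituitary and 10 of iWAT (inguinal white adipose tissue), a fat depot under the skin. Of the 10 in either tissue, 5 carry the label WT and 5 the label KLF14 KO, which the series describes as a germline deletion of the Krüppel-like factor Klf14. The mice labelled KO were 19 to 21 weeks old and those labelled WT 18 to 21 weeks. In either tissue, 21 weeks was given for 4 of 5 labelled KO and 2 of 5 WT libraries. Separate animals behind the libraries of a group are not stated in the labels, so a p-value here sets a group difference against the spread between these libraries. Libraries are named by the mouse number in their titles.

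Levels are CPM, counts per M counts of the library after TMM scaling over all 20 libraries, given as mean ± SD over 5 libraries. A gene is said to differ where its Benjamini-Hochberg adjusted p over all genes was under 0.05 in edgeR's quasi-likelihood test, and differences are on the log2 scale with their standard error (SE). Library totals were 13.6 to 18.7 M counts. Klf14 was higher, not lower, in the pituitary libraries labelled KO (31.8 ± 2.86 CPM against 15.9 ± 1.72, SD, n = 5; edgeR adjusted p = 7.6e-05), and in iWAT it lay between 0.0606 and 3.17 CPM, so its counts do not check the labels as a loss. The summed level of 6 pituitary hormone genes was at least 97380 CPM in every pituitary library and at most 1.84 CPM in 9 iWAT libraries, with 123.9 CPM in the iWAT library labelled KO 32. The summed level of 5 adipocyte genes was at least 4785 CPM in iWAT and at most 3.69 CPM in the pituitary. In bulk tissue, fewer cells of a type and less RNA per cell cannot be told apart.

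In the pituitary, Pign was the 1 gene of the route whose level differed between the labelled genotypes. Pign adds ethanolamine phosphate to the first mannose of the growing anchor. It lies on chromosome 1 (mm10, 105518422 to 105663676, minus strand), with 6777 bases of exon that no other annotated gene shares. Its level was 59.6, 59.3, 53.3, 55.9 and 56.2 CPM in the WT libraries 33, 34, 48, 49 and 56. In the labelled KO libraries 31, 32, 35, 50 and 66 it was 72.1, 83.0, 84.1, 72.3 and 77.6 CPM. The lowest labelled KO library lay above the highest WT library. The means were 77.8 ± 5.68 against 56.8 ± 2.63 CPM (SD, n = 5 each), 1.37-fold, a log2 difference of 0.45 (SE 0.06, edgeR adjusted p = 0.0016). By p it ranked 10 of the 16389 genes tested. Counts of 813 to 1441 reads lay behind these values.

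The age of the mice differed between the labelled genotypes, and the Pign values were set side by side within each age. At 21 weeks the 2 WT libraries had 59.3 and 59.6 CPM and the 4 labelled KO libraries 72.1 to 84.1 CPM. At 19 weeks the 2 WT libraries had 53.3 and 55.9 CPM and the 1 labelled KO library 72.3 CPM. The labelled KO libraries were higher within each of these ages. The log2 difference was 0.41 (SE 0.06, edgeR adjusted p = 0.0062) with age as a covariate and 0.41 (SE 0.08, edgeR adjusted p = 0.196) with mice of 21 weeks only.

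**Figure D1:**
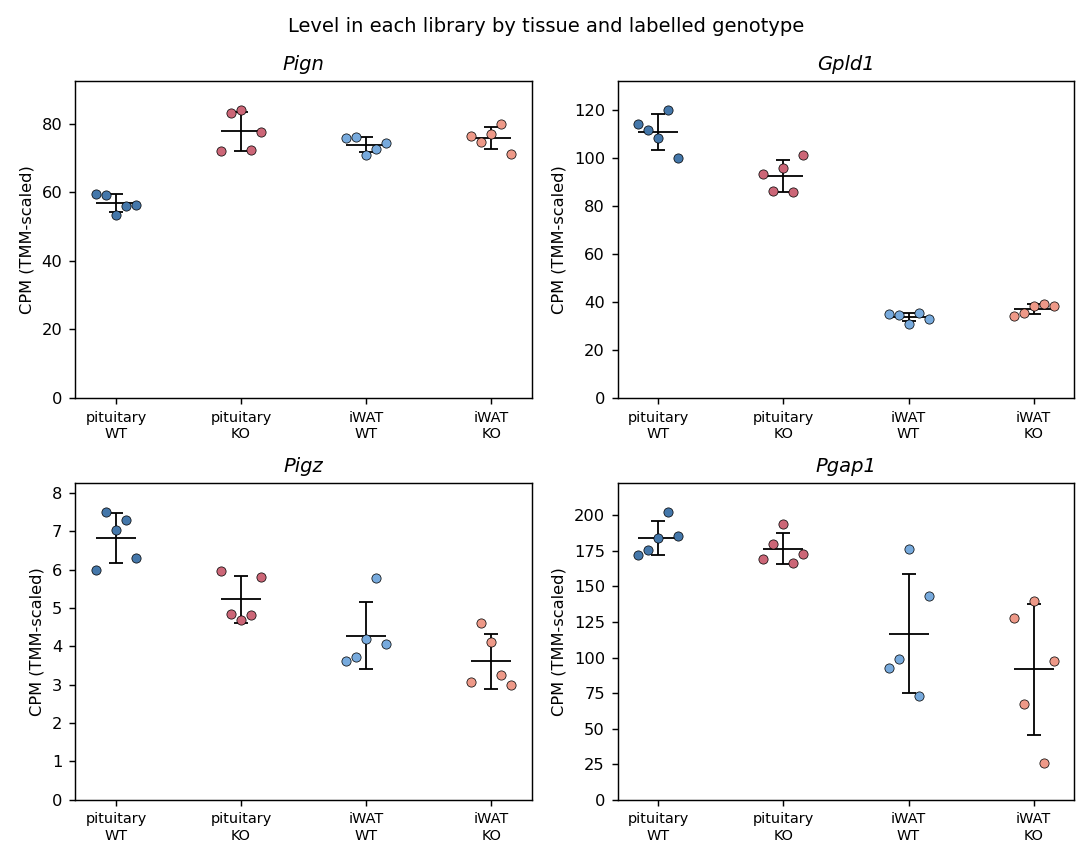
Level in CPM (TMM-scaled, axes from 0) of Pign, Gpld1, Pigz and Pgap1 in each of the 20 libraries (points), by tissue and labelled genotype, with mean and SD over 5 libraries. Labelled KO pituitary libraries lie at 72.1 CPM of Pign or more and WT pituitary libraries at 59.6 or less, while the iWAT groups overlap for all 4 genes.

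In iWAT the same gene showed no such difference. Pign was at 75.9, 76.1, 71.0, 72.5 and 74.3 CPM in the WT libraries 33, 34, 48, 49 and 56, and at 76.4, 74.8, 76.9, 79.9 and 71.3 CPM in the labelled KO libraries 31, 32, 35, 50 and 66. The groups overlapped over most of their range. The log2 difference was 0.01 (SE 0.06, edgeR adjusted p = 1.0). Pign had the smallest coefficient of variation of the 30 genes in WT iWAT, 2.98%. WT pituitary, at 59.6 CPM or less, was the 1 group of the 4 that stood below the rest, and the other groups lay between 71.0 and 84.1 CPM.

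Whether the labelled KO difference was itself unlike in the 2 tissues was tested as a contrast over all 20 libraries. For Pign the difference of differences was 0.42 on the log2 scale (SE 0.08). Its unadjusted p of 5.6e-05 was the smallest of 17731 genes, and the edgeR adjusted p was 0.75, so it did not pass. DESeq2 called it (adjusted p = 9.9e-05), and over all alternatives the adjusted p ran from 9.9e-05 to 1.0. No gene of the route passed in edgeR (background 0.0% of all genes), 0 passed with limma voom and 1 with DESeq2. Of the 30 genes, 2 had an unadjusted p under 0.05, Pign and Gpld1, against 2.41% of all genes.

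The start of Pign faces that of another gene. The neighbour, listed as 2310035C23Rik, is transcribed away from it on the plus strand, and the annotated starts are 185 bases apart. Its level in the pituitary was 132.8 ± 10.7 CPM in WT and 125.5 ± 4.62 CPM in labelled KO libraries (SD, n = 5 each), with overlapping groups. The log2 difference was -0.08 (edgeR adjusted p = 0.64), and in iWAT -0.04. The next gene on the far side, Rnf152, had a log2 difference of 0.05 in the pituitary (edgeR adjusted p = 0.93). The genes on either side therefore did not pass where Pign did.

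The 184 bases upstream of the Pign start, which lie between the annotated exons of this divergent pair (GRCm38.p6, chr1:105663677-105663860, minus strand, sequence from RefSeq), are shown because the pair shares this stretch and only Pign passed. Krüppel-like factors are known to bind GC boxes and CACCC boxes. GGGCGG and CACCC were searched on both strands, and matches are in capitals as they read on the strand of Pign, 5′ to 3′. For contrast, the 250 bases upstream of the Gpld1 start (chr13:24942902-24943151, plus strand) are given.
Pign: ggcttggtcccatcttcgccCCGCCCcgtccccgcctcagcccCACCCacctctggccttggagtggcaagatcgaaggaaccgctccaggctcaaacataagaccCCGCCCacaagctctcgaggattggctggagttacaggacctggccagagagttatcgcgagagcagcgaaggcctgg
Gpld1: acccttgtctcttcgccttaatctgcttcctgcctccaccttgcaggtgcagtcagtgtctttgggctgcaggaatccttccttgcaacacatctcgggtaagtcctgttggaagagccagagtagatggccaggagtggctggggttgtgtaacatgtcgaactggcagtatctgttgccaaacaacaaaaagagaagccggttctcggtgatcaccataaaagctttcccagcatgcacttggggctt

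The Pign stretch held 2 GC boxes, 164 to 159 and 78 to 73 bases upstream of the start, both as CCGCCC, and 1 CACCC 141 to 137 bases upstream. The Gpld1 stretch held neither, and it was longer and poorer in G and C (51.6% against 63.6% for Pign). Of 32817 RefSeq windows of 184 bases, 30.4% held GGGCGG and 43.1% held CACCC, so each motif is common. How many windows held 2 GC boxes, or both motifs, was not counted. RefSeq gave promoters for 24 of the 30 genes, in 34 windows of 250 bases. GGGCGG was in 50.0% of these windows against 32.7% of all windows, and CACCC in 73.5% against 52.0%. The windows of the route also had more G and C, a median of 59.6% against 52.4%, and more CpG, a median of 18 against 6 per window. A match is a description of these letters and not of binding.

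A divergent start within 1 kb, with an overlap of the pair of at most 100 bases, was found for 7 of the 30 genes (23.3%) against 9.5% of 23992 genes. Pigp and Ttc3, on opposite strands with starts 276 bases apart and overlapping 5′ ends, were over that limit. The other six are Pigw (with Myo19), Pigx (with Cep19), Pigb (with 2310009A05Rik), Pigf (with Cript), Dpm1 (with Mocs3) and Pgap2 (with Nup98).

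Over the whole route, 1 of 30 genes passed in the pituitary, against 0.549% of all genes tested in either direction and 0.415% in the higher direction. Pign had already been seen in earlier results of these data, so this count is a description. The median log2 difference of the 30 genes was 0.018, and 0.004 over all genes, and 17 of 30 were above 0. The groups of libraries did not overlap for 2 genes, Pign and Pigz, against 2.85% of all genes. An unadjusted p under 0.05 was seen for 3 genes, Pign, Gpld1 and Pigz, against 10.9% of all genes. The other 27 lay between -0.08 for Mppe1 and 0.13 for Pigw, and their smallest unadjusted p was 0.11.

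Gpld1 encodes a phospholipase D that cuts GPI anchors and so releases proteins, and it stood on the other side of zero from Pign. Its pituitary level was 114.4, 111.5, 108.2, 120.1 and 100.0 CPM in the WT libraries 33, 34, 48, 49 and 56. It was 93.3, 86.3, 96.0, 85.8 and 101.2 CPM in the labelled KO libraries 31, 32, 35, 50 and 66. The groups overlapped at 1 pair of libraries, labelled KO 66 above WT 56. The means were 92.5 ± 6.55 against 110.9 ± 7.48 CPM (SD, n = 5 each), with a log2 difference of -0.26 (SE 0.06). The unadjusted p was 0.00055 and the edgeR adjusted p 0.071, so the call was missed, while DESeq2 gave an adjusted p of 0.0073. Over the 23 alternatives the adjusted p ran from 0.0073 to 0.65. In iWAT Gpld1 was at 33.8 ± 1.77 CPM in WT and 37.0 ± 2.17 CPM in labelled KO libraries, a log2 difference of 0.10 (edgeR adjusted p = 1.0). The difference of differences was -0.39 (SE 0.09, unadjusted p = 0.00048, edgeR adjusted p = 1.0), the third smallest p of that contrast.

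Pigz adds an optional further mannose and was among the lowest genes of the route. In the pituitary it was at 5.98, 7.51, 7.03, 7.28 and 6.31 CPM in the WT libraries 33, 34, 48, 49 and 56. It was at 5.96, 4.84, 4.69, 4.83 and 5.79 CPM in the labelled KO libraries 31, 32, 35, 50 and 66. The 2 groups touched without overlap, with labelled KO 31 just under WT 33. The log2 difference was -0.38 (SE 0.12), at 67 to 120 reads per library, with an edgeR adjusted p of 0.20. No alternative called it (adjusted p 0.15 to 1.0). In iWAT the difference was -0.27 (SE 0.20), and the groups overlapped.

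**Figure D2:**
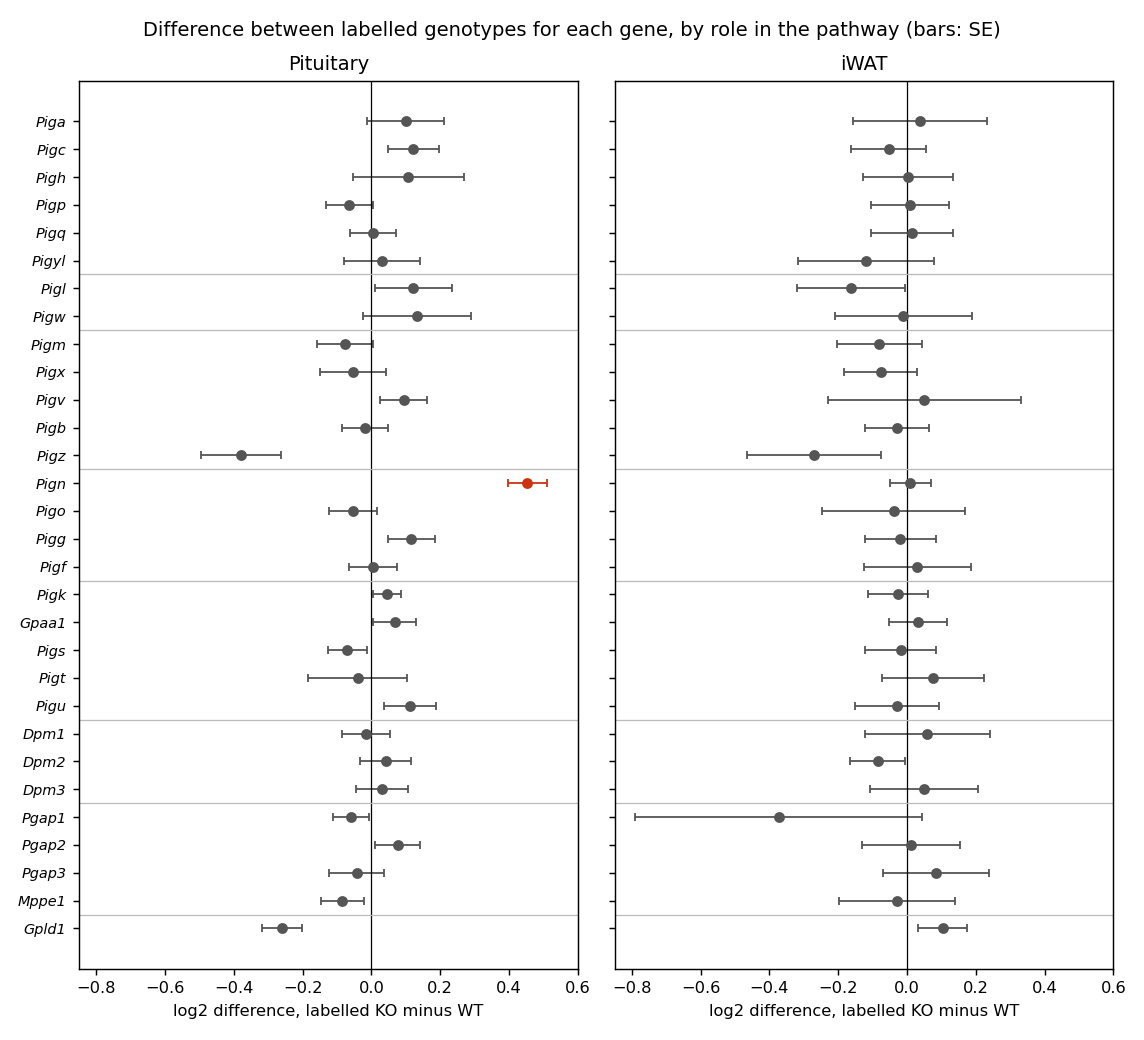
Log2 difference, labelled KO minus WT, of the 30 genes in the pituitary (left) and iWAT (right), ordered by role with grey lines between roles. Points are edgeR estimates, bars are SE, and the red point is the 1 gene with an adjusted p under 0.05, Pign in the pituitary at 0.45.

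No other step of the route held a called gene in the pituitary. Of the 6 genes of the first transferase, which puts N-acetylglucosamine on phosphatidylinositol, 0 passed between labelled genotypes in the pituitary, and their log2 differences ran from -0.07 for Pigp to 0.12 for Pigc. Piga, its catalytic subunit, was at 9.36 ± 1.03 CPM in WT and 10.0 ± 1.34 CPM in labelled KO libraries (SD, n = 5 each). Pigl, the deacetylase, and Pigw, the inositol acyltransferase, differed by 0.12 and 0.13. The mannosyltransferases other than Pigz, which are Pigm with its partner Pigx, Pigv and Pigb, lay between -0.08 and 0.09.

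Pigo and Pigg, the ethanolamine phosphate transferases for the third and the second mannose, did not pass beside Pign. Pigo differed by -0.05 (SE 0.07) and Pigg by 0.12 (SE 0.07, edgeR adjusted p = 0.58). Pigf, the partner that both need, differed by 0.00 (SE 0.07). The summed level of these 4 genes per kb of exon was 46.3 ± 1.63 in WT and 50.2 ± 2.22 in labelled KO pituitary. The 5 transamidase genes lay between -0.07 for Pigs and 0.11 for Pigu. Pigk, the catalytic subunit of the transamidase, was the steadiest gene of the route in the pituitary, at 64.6 ± 0.97 CPM in WT and 66.6 ± 1.25 CPM in labelled KO libraries (SD, n = 5 each), with a log2 difference of 0.04 (SE 0.04).

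Dpm1, Dpm2 and Dpm3 form the synthase of dolichol phosphate mannose, the sugar donor that GPI shares with N-glycans, and differed by -0.02, 0.04 and 0.03. The remodelling genes lay between -0.08 and 0.08. They are Pgap1, which removes the inositol acyl chain, Mppe1, which removes an ethanolamine phosphate, and Pgap3 and Pgap2, which exchange the fatty acid.

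In iWAT 0 of 30 genes passed in edgeR (background 0.0% of all genes), 0 had an unadjusted p under 0.05 (background 0.553%), and DESeq2 and limma voom also called 0. The groups overlapped for all 30 genes (background 0.0807% without overlap). The median log2 difference was -0.015, with 14 of 30 above 0, and the median over all genes was 0.000. The SEs were larger than in the pituitary, with a median of 0.14 against 0.07. Pign itself had an SE of 0.06 in both tissues.

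Pgap1 was the most variable gene of the route in iWAT. It was at 92.4, 98.8, 176.2, 73.2 and 143.3 CPM in the WT libraries 33, 34, 48, 49 and 56, and at 127.9, 67.6, 139.5, 25.8 and 97.5 CPM in the labelled KO libraries 31, 32, 35, 50 and 66. The highest library held 6.84 times the lowest, and the labelled genotypes overlapped widely. The log2 difference was -0.37 (SE 0.42, edgeR adjusted p = 1.0). It was -0.13 without labelled KO 50 and 0.16 with mice of 21 weeks only. With the mean log2 CPM of the lymph node markers and of the muscle markers as covariates it was -0.13 (SE 0.22). The library at 25.8 CPM, labelled KO 50, had the lowest sum of 10 lymph node B and T cell markers, 19.4 CPM against 394.8 to 1551 in the other nine, and the highest sum of adipocyte markers, 18240 CPM. Labelled KO 50 also had the highest blood and endothelial sums of the iWAT libraries, 7766 and 1407 CPM, and the lowest muscle sum, 21.3 CPM. The library at 176.2 CPM, WT 48, had the lowest adipocyte sum, 4785 CPM, and a lymph node sum of 1514 CPM. The part of these other cells in the Pgap1 values was not tested beyond that covariate fit. Outside Pgap1, the other 29 genes lay between -0.27 for Pigz and 0.10 for Gpld1 in iWAT.

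Levels were compared between genes only per kb of exon. In WT pituitary Dpm3 was highest (31.8 ± 2.58 CPM per kb), followed by Pigp (27.6 ± 1.71), Dpm1 (24.6 ± 2.67) and Gpld1 (23.8 ± 1.60). The lowest were Pigw (1.15 ± 0.12) and Piga (2.61 ± 0.29). Each neighbour in this order of 4 overlapped the next within their SDs. In WT iWAT the order was led by Pigf (24.99 ± 4.78), Dpm1 (24.8 ± 4.21), Pigq (24.6 ± 3.55) and Dpm3 (23.7 ± 2.51), which do not differ beyond their SDs, and ended with Pigz (1.96 ± 0.40) and Pgap3 (1.92 ± 0.37). Pigp and Pigf share exon bases with Ttc3 and Rhoq, so their places in these orders are uncertain. Over the 30 genes the rank order of the 2 tissues gave a Spearman rho of 0.667, as a description over genes whose levels share the same libraries. The 6 genes with shared exon bases are among these 30.

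The transamidase subunits were near each other in WT iWAT, between 12.4 and 13.8 CPM per kb. In WT pituitary they spread more, with Pigt at 8.07 ± 0.64, Pigu at 11.4 ± 0.76, Pigk at 13.3 ± 0.20, Gpaa1 at 15.3 ± 0.62 and Pigs at 16.2 ± 0.96. Their sum was alike in the 2 tissues, 64.2 ± 2.33 and 65.0 ± 5.11 CPM per kb (SD, n = 5 each). The sum over the 6 genes of the first transferase was 87.3 ± 4.40 in WT pituitary and 66.3 ± 5.39 in WT iWAT, but Pigh and Pigp share exon bases with genes that are higher in the pituitary. Without these 2 the direction turned: Piga, Pigc, Pigq and Pigyl summed to 41.7 ± 2.46 in WT pituitary and 46.1 ± 3.96 in WT iWAT, with overlapping ranges. The sum of the deacetylase Pigl and the inositol acyltransferase Pigw was 6.15 ± 0.70 in WT pituitary and 14.3 ± 1.23 in WT iWAT, and these ranges did not overlap.

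**Figure D3:**
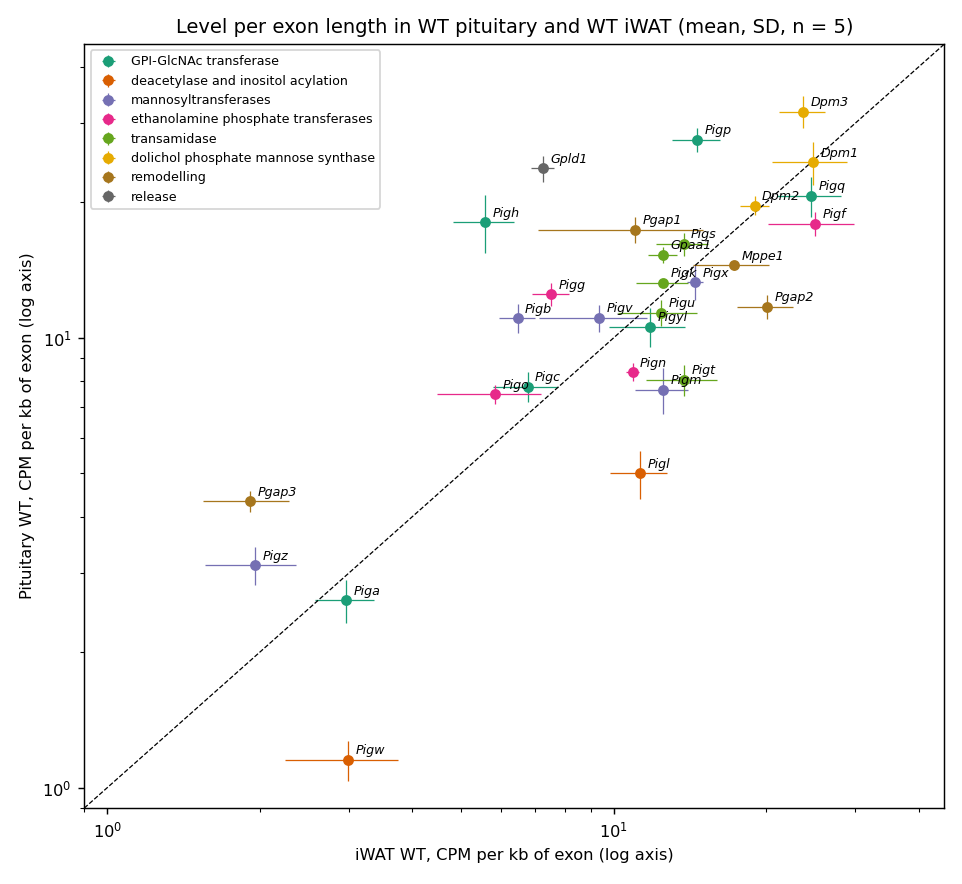
Level per kb of exon of the 30 genes in WT iWAT (x, log axis) and WT pituitary (y, log axis), as mean and SD over 5 libraries each, coloured by role. The dashed line marks equal levels. Gpld1, Pigh and Pgap3 lie farthest above it and Pigw and Pigl farthest below.

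Between WT pituitary and WT iWAT, 19 of the 30 genes differed, 12 higher and 7 lower in the pituitary. This share of 63.3% lay under the background of 79.1% of all 17023 genes tested (40.2% higher and 38.9% lower). Without overlap between the groups were 15 genes, 50.0%, against 69.5% of all genes. The median absolute log2 difference was 0.42 over the 30 genes and 0.87 over all genes, and 5 of the 19 differed by at least 2-fold. The median signed difference was 0.088 for the 30 genes and 0.012 for all genes.

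Gpld1 had the largest of these differences, with 110.9 ± 7.48 CPM in WT pituitary and 33.8 ± 1.77 CPM in WT iWAT (SD, n = 5 each). The log2 difference was 1.73 (SE 0.07, edgeR adjusted p = 1.0e-09), and it was 1.33 (SE 0.07) between the labelled KO libraries of the 2 tissues. Pgap3, the first enzyme of fatty acid exchange, was 2.29-fold higher in the pituitary (10.5 ± 0.56 against 4.64 ± 0.89 CPM, log2 difference 1.20). Pgap3 in WT iWAT rested on 60 to 96 reads per library. Pgap2, which acts after it, was lower (26.8 ± 1.71 against 45.9 ± 5.82 CPM, log2 difference -0.75), so the 2 enzymes of this exchange lay in opposite directions. Pgap1 was higher in the pituitary by 0.67 (SE 0.21, edgeR adjusted p = 0.012), with overlapping groups, and the call was lost with all 20 libraries in 1 fit (0.65).

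At the start of the route the pituitary had higher counts of Pigh and Pigp, both uncertain through shared exon bases, and less Pigl and Pigw. Pigl was at 8.28 ± 1.01 CPM in WT pituitary and 18.7 ± 2.38 CPM in WT iWAT (SD, n = 5 each; log2 difference -1.15, SE 0.12). Pigw was at 3.15 ± 0.32 and 8.18 ± 2.05 CPM (log2 difference -1.35, SE 0.19). The difference of Pigp was 0.94 (SE 0.08), and that of Pigh 1.72 (SE 0.12). Piga, Pigc, Pigq and Pigyl did not pass and lay between -0.23 and 0.23.

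Among the mannosyltransferases, Pigb (log2 difference 0.79, SE 0.08) and Pigz (0.69, SE 0.15) were higher in the pituitary and Pigm lower (-0.69, SE 0.11). All 4 ethanolamine phosphate genes differed, Pigg (0.75, SE 0.07) and Pigo (0.38, SE 0.15) higher, Pigf (-0.46, SE 0.12) and Pign lower. The Pign difference was -0.36 (SE 0.06, edgeR adjusted p = 9.5e-05) in WT libraries and 0.04 (SE 0.07, edgeR adjusted p = 0.587) in labelled KO libraries. Of the transamidase, Gpaa1 (0.31, SE 0.07) and Pigs (0.26, SE 0.09) were higher and Pigt lower (-0.75, SE 0.12). Of the mannose donor synthase, Dpm3 was higher (0.45, SE 0.10). Dpm1 (0.01) and Dpm2 (0.07) did not pass.

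The log2 differences of Pigo and Pigs were 0.38 and 0.26 with all 10 libraries, and their calls were lost when some single libraries were left out. For Pigo the log2 difference was 0.35 without WT iWAT 33, 0.36 without WT iWAT 34, 0.37 without WT iWAT 56, 0.36 without WT pituitary 33 and 0.38 without WT pituitary 48, each with the call lost in edgeR. For Pigs it was 0.21 without WT iWAT 34 or WT iWAT 56, with the call lost. Between the tissues in the libraries labelled KO, 19 of 30 genes differed, 11 higher and 8 lower, and 16 of them were among the 19 of the WT libraries. Over all genes, 12696 of 16905 tested differed between the tissues in the libraries labelled KO. Pign, Pigo (0.33, edgeR adjusted p = 0.080) and Pigs (0.16, edgeR adjusted p = 0.081) were not called there, and Pigc, Pigq and Mppe1 were.

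**Figure D4:**
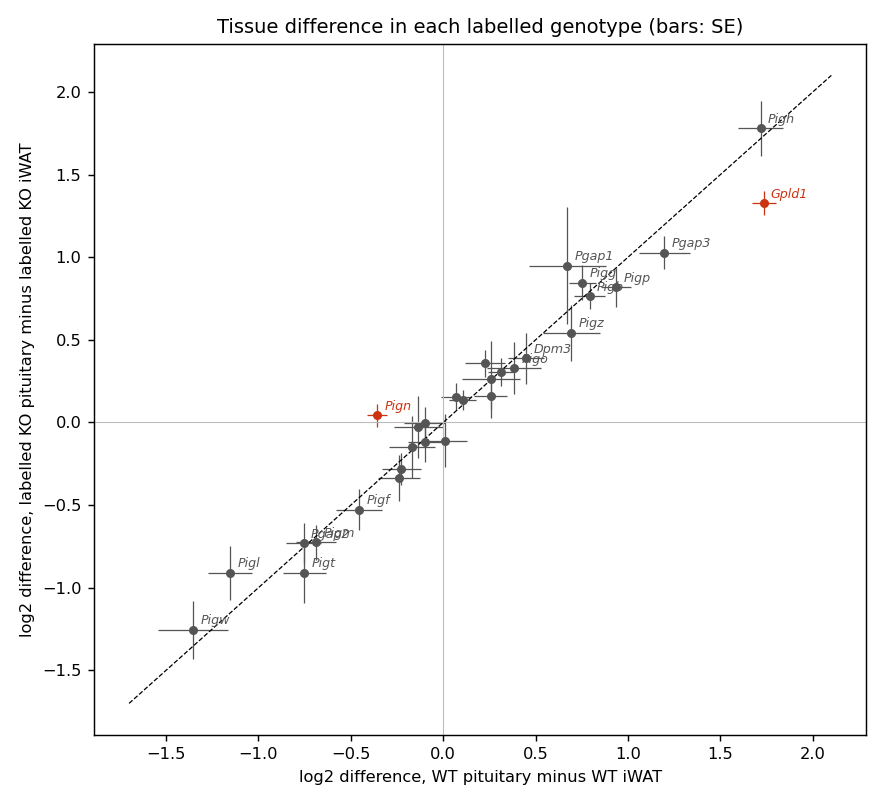
Log2 difference between pituitary and iWAT of the 30 genes in WT libraries (x) and in labelled KO libraries (y), from 2 edgeR fits on separate libraries, with SE bars. The dashed line marks equal differences. Names are given for genes past 0.34 on x in either direction, and Pign (-0.36 and 0.04) and Gpld1 (1.73 and 1.33) are in red.

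Reads were counted without regard to strand and for each gene they overlapped, so 6 genes that share exon bases with a neighbour are uncertain. Pigh shares 1217 of its 2352 exon bases with Plekhh1 and 9230116L04Rik. Plekhh1 was at 110.5 ± 29.0 CPM in WT pituitary and 14.3 ± 8.66 CPM in WT iWAT (log2 difference 2.97), the direction of Pigh. In the pituitary library labelled KO 35 Plekhh1 and Pigh were both at their highest, 210.7 and 66.0 CPM. Pigb shares 600 bases with Ccpg1 (tissue log2 difference 1.25), Pigp 121 with Ttc3 (1.66), Pigf 309 with Rhoq (-1.19), Mppe1 364 with Gnal (-0.88) and Pigw 58 with Myo19 (-0.31, not called). Reads of these pairs cannot be told apart. Among the 24 genes with no shared bases, 14 differed between the WT tissues, 9 higher and 5 lower, and Pign remained the 1 call between labelled genotypes. Over all genes, those with shared bases included, 79.1% differed between the WT tissues and 0.549% between labelled genotypes in the pituitary.

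Of all genes, 0.549% passed in edgeR between labelled genotypes in the pituitary, and 0.0% in iWAT and in the contrast of the tissues. Beside this background, 0 genes passed in either tissue or in the contrast in 4 further lists around the route. These were other GPI pathway genes (14 tested in the pituitary, 13 in iWAT), dolichol and ethanolamine supply (14 in each), N-glycan assembly and transfer (24 in each) and GPI-anchored proteins (61 in each). At an unadjusted p under 0.05 in the pituitary there were 1, 2, 3 and 7 genes in these lists, in that order, against 10.9% of all genes, and in iWAT 0, 0, 0 and 1, against 0.553%. The median log2 differences of the lists in the pituitary were 0.001, 0.007, 0.052 and 0.068.

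Between the WT tissues, 16 of 24 N-glycan genes differed, 14 higher and 2 lower in the pituitary. This is 66.7%, against 79.1% of all genes, of which 40.2% were higher and 38.9% lower. The median log2 difference was 0.51 for these genes and 0.012 over all genes. Tusc3, an oligosaccharyltransferase subunit, was higher by 2.70 and Alg2, a mannosyltransferase, by 1.71, while Stt3b, a catalytic subunit, was lower by 0.94 on that scale. Of the other GPI pathway genes, 9 of 14 differed (64.3%, under the 79.1% of all genes), among them Tmem246, which adds a side-branch sugar to GPI (23.0 ± 2.09 against 3.51 ± 0.73 CPM, log2 difference 2.74), and Tmed5, a cargo receptor of the early secretory route (33.6 ± 3.36 against 183.1 ± 35.8 CPM, log2 difference -2.42; SD, n = 5 each). Of the supply genes 11 of 14 differed (78.6%, near the background), 6 higher and 5 lower. Gfpt1, which starts the synthesis of the N-acetylglucosamine donor, was higher by 1.43, while Uap1, of the same synthesis, was at -1.64. Dolk, the dolichol kinase, was at -1.66.

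Of 66 GPI-anchored proteins tested between the WT tissues, 51 differed, 22 higher and 29 lower in the pituitary. This share of 77.3% was near the 79.1% of all genes. The median absolute log2 difference was 2.103 over these 66 genes, 0.42 over the 30 genes of the route and 0.87 over all genes, as a description. Ly6h was at 140.0 ± 24.3 CPM in WT pituitary and 0.956 ± 0.73 CPM in WT iWAT, and Cntn1, an adhesion molecule of neurons, at 194.1 ± 9.89 and 2.67 ± 0.75 CPM (SD, n = 5 each). Vnn1, a pantetheinase, was at 0.101 ± 0.03 CPM in WT pituitary and 56.5 ± 44.5 CPM in WT iWAT. The log2 differences of Ly6h and Vnn1 were 7.21 (SE 0.33) and -9.00 (SE 0.77), the ends of this list. Vnn1 was near the floor of counts in the pituitary, so the size of its difference is uncertain.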

How the data were processed

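The members and lists were chosen with earlier results of these data known. Poly(A) libraries from 2 tissues and 2 labelled genotypes were read as deposited. The authors deposited raw counts per gene; per the file headers they were made with featureCounts over exons of a UCSC mm10 annotation, from primary alignments, counting a read for each gene it overlapped, with no strand option given. The submitters' processing notes name STAR 2.4.0, featureCounts 1.4.4, mm10 and GRCm38. Libraries held 13.6 to 18.7 M counts. No pair of libraries within a group agreed within sampling noise (smallest reduced chi-square 4.70).

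The 4 comparisons used edgeR 4.0.16 under R 4.3.3, with genes kept by filterByExpr, TMM scaling, the robust quasi-likelihood test and Benjamini-Hochberg adjustment over all genes: labelled KO against WT in each tissue, WT pituitary against WT iWAT, and the contrast of the labelled KO effects over all 20 libraries. The scripts were tested on simulated counts. All 30 members, Klf14, Pign's neighbours and the 3 highest and 3 lowest called genes of each other list could be named. Plekhh1 and the other genes with shared exon bases were chosen after their values were seen. Of the listed names 1 was not matched and 1 was matched by an older symbol. Alternatives were other scalings, filters, DESeq2 1.42.0, limma 3.58.1 voom, a threshold of 0.1, age, cell type scores, other sets of libraries and a replicate block.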

Additional observations from a re-analysis of the deposited data

Results flagged for a closer look

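In 5 of 120 groups of 5 libraries, 1 library lay far from the other four (gap over range above 0.71). Chance flags about 1 in 20 groups. The pituitary library labelled KO 35 was the highest for 3 genes: Piga at 12.3 CPM (others 8.79 to 9.73), Pigh at 66.0 CPM (36.3 to 43.2) and Pigg at 58.0 CPM (45.5 to 48.2). Without it the log2 differences between labelled genotypes were 0.02, -0.06 and 0.05, and none of the 3 was called with or without it. The iWAT library labelled KO 50 was the highest for Pigp at 33.7 CPM (others 22.9 to 25.7), and the WT iWAT library 49 for Pigz at 5.78 CPM (3.62 to 4.18).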

How the results depend on the processing

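In the pituitary Pign was called in 22 of 23 alternatives, with log2 differences of 0.41 to 0.48. The count of route genes called was 1 in the main analysis, 2 (Pign and Gpld1) at an adjusted p under 0.1 and with DESeq2, 0 with mice of 21 weeks only, and 1 to 1 when each library was left out. Over all genes the pituitary count was 90, and 192 at 0.1, 288 with DESeq2, 44 with age as a covariate, 5 with mice of 21 weeks only, 1 with all 20 libraries in 1 fit, and 50 to 112 without each library, lowest without WT 49, WT 56 (51) and labelled KO 32 (55). In iWAT the count stayed at 0 throughout. In the contrast of the tissues it was 0 and with DESeq2 1 (Pign). Between the WT tissues it was 19, with 17 to 22 when each library was left out. Over all genes the count between the WT tissues was 13461, with 13196 to 13632 without each library. The Pign tissue difference turned to 0.0428 in labelled KO libraries. Upper-quartile scaling moved the median tissue difference of all genes from 0.012 to 0.12, and library totals to 0.108, with 21 route genes called under each, 14 higher and 7 lower. Of all 17023 genes, 13498 were called with upper-quartile scaling and 13230 with library totals. Where not named, the cause was not tested.

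Same-numbered libraries of the tissues did not deviate together (correlations -0.059 to 0.095). With the replicate block 20 route genes differed between the WT tissues (Pigc added) and 0 in the contrast of the tissues. Over all genes, the block gave 13197 of 17023 between the WT tissues and 0 of 17731 in the contrast. The sign of uncalled differences changed in at least 1 alternative for 12 of 29 genes in the pituitary, 26 of 30 in iWAT and 18 of 30 in the contrast. In the pituitary counting error bears most on Pigw and Pigz, at 36 to 120 reads per library. In iWAT it bears most on Pigz, at 43 to 86 reads per library, and Pgap3, at 60 to 96.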
